A study of Caenorhabditis elegans with 2 samples.

Results

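Transfer RNA genes were among the places where tagged RNT-1 was found in young larvae: of 5560 chromatin immunoprecipitation peaks, 277 had their summit within 500 bp of the start of a tRNA gene. A summit is the base of highest signal in a peak, and the start is the first base of the mature tRNA sequence in the Ensembl annotation of WBcel235, the assembly also called ce11. The annotation lists 634 tRNA genes, of which 22 are mitochondrial and 612 lie on the 6 nuclear chromosomes; the region lists held no mitochondrial region. The members were picked from these peaks by position alone, so their side, spacing and sequence were not used to choose them. Signal entered only through the peak list, which equals the strongest 5560 of 30000 regions from the pooled replicates. The 277 peaks lay within 500 bp of 305 of the 612 nuclear genes.

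The libraries were 2 biological replicates of anti-GFP immunoprecipitation from whole hermaphrodite L1 larvae of strain OP462. Its genotype is unc-119(tm4063) III; wgIs462, and its transgene carries rnt-1 with a GFP-FLAG tag at the C terminus. Larvae had been synchronized by starvation after bleaching and were taken 6 h later, and chromatin was broken by sonication. Both replicates carry the unc-119 allele and the tagged transgene, and both form the study's 1 group; a control library named in the labels was not analysed here. Whole animals were used, so the lists average over all cells, and fewer bound cells cannot be told apart from less binding in each cell.

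The worm's RUNX transcription factor is RNT-1, known for its role in how often the epidermal seam cells divide. Transfer RNA genes are transcribed by RNA polymerase III, and their promoter lies inside the gene as the A box and the B box, which the factor TFIIIC binds before TFIIIB is placed just upstream of the start. Transcription ends at a short run of T after the gene. Many tRNA genes of the worm exist as identical copies in several places, which differ only in their flanking sequence.

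The genes at 5 of the strongest summits within 100 bp show the internal promoter element that the class shares, with the B box match GTTCNANNC in capitals; these sequences and those that follow are from the RefSeq WBcel235 assembly, 5′ to 3′ on the gene's strand. W09D6.t2, a proline tRNA gene, lies at chrIII:11066848-11066919 on the minus strand. K11H12.t1, annotated as a selenocysteine tRNA gene, lies at chrIV:658181-658266 on the plus strand. R11.t1, a tyrosine tRNA gene, lies at chrX:16209769-16209852 on the minus strand, C33G3.t2, a lysine tRNA gene, at chrX:14063946-14064018 on the minus strand, and C04A11.t1, a leucine tRNA gene, at chrX:13665555-13665673 on the plus strand.
W09D6.t2: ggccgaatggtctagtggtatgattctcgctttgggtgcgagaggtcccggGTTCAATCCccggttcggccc
K11H12.t1: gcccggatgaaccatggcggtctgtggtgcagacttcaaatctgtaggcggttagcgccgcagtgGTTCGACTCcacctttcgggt
R11.t1: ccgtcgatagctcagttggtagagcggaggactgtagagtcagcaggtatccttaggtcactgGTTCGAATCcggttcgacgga
C33G3.t2: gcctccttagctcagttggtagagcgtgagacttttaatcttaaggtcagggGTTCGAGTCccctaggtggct
C04A11.t1: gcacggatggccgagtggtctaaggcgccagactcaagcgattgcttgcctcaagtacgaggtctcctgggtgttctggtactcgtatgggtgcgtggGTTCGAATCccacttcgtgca

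Identical genes differ only outside the gene, so the 50 bases before the start are shown for copies of 1 proline gene with and without a peak, with G and C in capitals. The proline gene has the sequence printed for W09D6.t2 and exists in 24 copies, of which 8 had a summit within 100 bp and 10 had no candidate region within 500 bp in the pooled list. The flanks are W09D6.t2 at chrIII:11066920-11066969 (minus strand), ZK899.t1 at chrX:9467801-9467850 (minus strand), C48C5.t1 at chrX:8969688-8969737 (plus strand) and F23D12.t1 at chrX:14438052-14438101 (plus strand). W09D6.t2 had 48% GC in its flank and a signal of 853, and ZK899.t1 had 34% and 278. Neither C48C5.t1, with 30% GC, nor F23D12.t1, with 50%, had a candidate region.
W09D6.t2: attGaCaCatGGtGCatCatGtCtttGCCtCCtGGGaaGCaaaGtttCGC
ZK899.t1: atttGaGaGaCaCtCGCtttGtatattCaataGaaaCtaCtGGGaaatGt
C48C5.t1: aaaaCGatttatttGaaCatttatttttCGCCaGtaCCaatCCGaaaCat
F23D12.t1: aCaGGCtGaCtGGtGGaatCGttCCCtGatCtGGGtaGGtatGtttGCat

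A threonine gene with 15 identical copies, of which 8 had a summit within 100 bp, is shown in the same way. The flanks are ZK563.t1 at chrX:3371494-3371543 (minus strand), F25F6.t2 at chrX:4444964-4445013 (plus strand), W02G9.t1 at chrV:2664739-2664788 (minus strand), K08H2.t1 at chrX:13261153-13261202 (plus strand) and R04D3.t5 at chrX:13283709-13283758 (minus strand). ZK563.t1 had a signal of 311 with 46% GC upstream, and F25F6.t2 had 246 with 42%. W02G9.t1, with 48% GC, had no candidate region, while K08H2.t1 with 40% had a candidate of 33.6 and R04D3.t5 with 34% a candidate of 35.3, both weaker than any peak in the list.
ZK563.t1: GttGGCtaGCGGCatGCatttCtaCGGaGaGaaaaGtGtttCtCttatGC
F25F6.t2: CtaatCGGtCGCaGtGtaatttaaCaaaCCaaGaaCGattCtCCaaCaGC
W02G9.t1: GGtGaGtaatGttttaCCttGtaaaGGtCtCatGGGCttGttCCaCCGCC
K08H2.t1: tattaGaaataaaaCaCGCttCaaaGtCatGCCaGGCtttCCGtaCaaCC
R04D3.t5: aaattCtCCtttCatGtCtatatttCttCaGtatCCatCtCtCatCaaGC

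Peaks were more frequent at tRNA genes than at any other gene class counted. A summit lay within 500 bp of the start of 305 of 612 tRNA genes (49.8%), compared with 2738 of 19973 protein-coding genes (13.7%). Small nucleolar RNA genes came nearest, with 135 of 346 (39.0%), followed by small nuclear RNA genes with 31 of 129 (24.0%) and microRNA genes with 42 of 261 (16.1%). Of 209 annotated tRNA pseudogenes, which resemble tRNA genes but are not held to make a working tRNA, 6 had a summit within 500 bp (2.87%). No test over samples could be made with 1 group, so these shares describe this peak list.

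Most members were close to the start. Of the 277 summits, 263 lay within 100 bp of a tRNA start, the farthest of them at 90 bp, none lay between that and 170 bp, and 14 lay at 170 to 445 bp; the split at 100 bp was chosen after the distances were seen. Summits within 100 bp touched 269 tRNA genes (44.0%), 641 protein-coding genes (3.21%) and 4 tRNA pseudogenes (1.91%). They touched 93 small nucleolar RNA genes (26.9%), 30 small nuclear RNA genes (23.3%) and 8 microRNA genes (3.07%). The 100 bp distance was set on the tRNA summits. Summits near protein-coding starts were most frequent in the 10 bp bin that begins at -160 bp, which lies outside it. The contrast with protein-coding genes at 100 bp therefore depends in part on that choice. Of the 36 tRNA genes with a summit between 100 and 500 bp only, 27 had that summit within 100 bp of another tRNA gene.

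Most summits sat just in front of the gene. Over the 263 close peaks the median position was -13 bp relative to the start, with quartiles at -24 and 2 bp and a range of -79 to 90 bp. Of these summits, 177 were upstream (67.3%), 84 were inside the gene (31.9%) and 2 were past its end. The median lay inside the gene for valine tRNA genes (9 bp, 19 peaks) and aspartate tRNA genes (5.5 bp, 14 peaks). For every other amino acid it was upstream. The most populated stretch was -30 to -11 bp, with 107 summits (40.7%). Of all 277 members, 176 were within 25 bp and 248 within 50 bp of a start. Peaks with an upstream summit had a median signal of 229, and those with a summit inside the gene had 177.

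**Figure D1:**
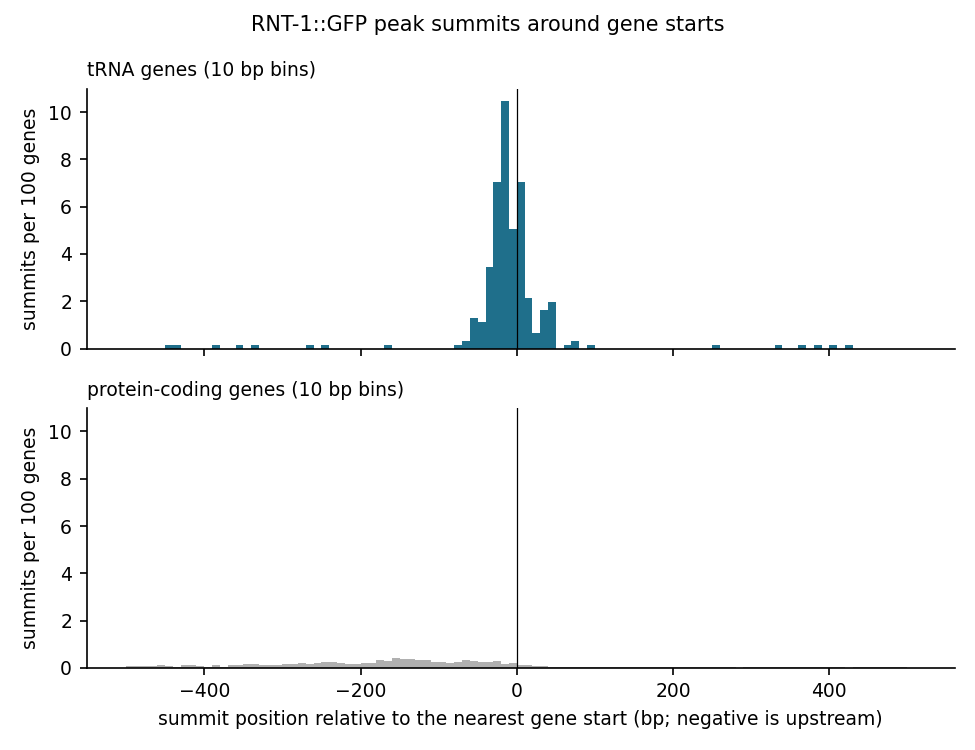
Peak summits per 100 genes in 10 bp bins of distance to the nearest start (bp, negative is upstream), for 612 tRNA genes and 19973 protein-coding genes on the same vertical scale. The tRNA summits pile up within 100 bp of the start, and the protein-coding summits are spread over the upstream side.

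The nearest start of any gene, with piRNA genes left out, was that of a tRNA gene for 263 members, that of an annotated noncoding RNA for 10 and that of a protein-coding gene for 4. Members were chosen for a tRNA start within 500 bp, which favours the first of these counts. A protein-coding start lay within 500 bp of 47 members (17.0%), compared with 2221 of the 5283 other peaks (42.0%). The median distance to a protein-coding start was 1545 bp for the members and 802 bp for the other peaks. Of the 263 close peaks, 150 (57.0%) nevertheless had a protein-coding start within 2000 bp, so a rule that gives each summit to the nearest protein-coding gene at that distance would name a protein-coding gene for them. C37A2.t1, a cysteine tRNA gene in an intron of the cyclin E gene cye-1, is an example singled out after its values were seen: its peak, with a signal of 462, had its summit 48 bp before the tRNA start and 956 bp from the cye-1 start.

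Signal, the enrichment value the authors' peak caller gave each region, is used here to rank regions; no source used here gives its scale. The members ranged from 71.9 to 1214 with a median of 205, while the 5283 other peaks had a median of 172. They were concentrated in the upper middle of the list rather than at its top. Counting from the strongest of 5 equal bins of all peaks, the first bin held 33 members (11.9%), the second 97 (35.0%) and the third 78 (28.2%). Median peak width was 216 bp for both members and other peaks.

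Most members had a region over the summit in each replicate, and so did most other peaks. The peak list was built from these 2 replicates, so such coverage was favoured by the choice of peaks. Both replicates had a region over the summit at 260 of 277 members and at 5022 of 5283 other peaks. No region covered the summit in replicate 1 for 9 members and in replicate 2 for 9. Of these, 1, at R04A9.t1, had none in either replicate although its pooled signal was 347. Over the 260, the median signal was 113 in replicate 1 and 98.9 in replicate 2, and the median ratio of replicate 2 to replicate 1 was 0.897. Across these peaks, which share both libraries, rho (Spearman) was 0.833 and r (Pearson) 0.904. The median coefficient of variation between the replicates was 17.1%, and 15.4% at other peaks. Signals differed by more than 2-fold at 9 of the 260 members (3.46%) and at 414 of 5022 other matched peaks (8.24%).

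**Figure D2:**
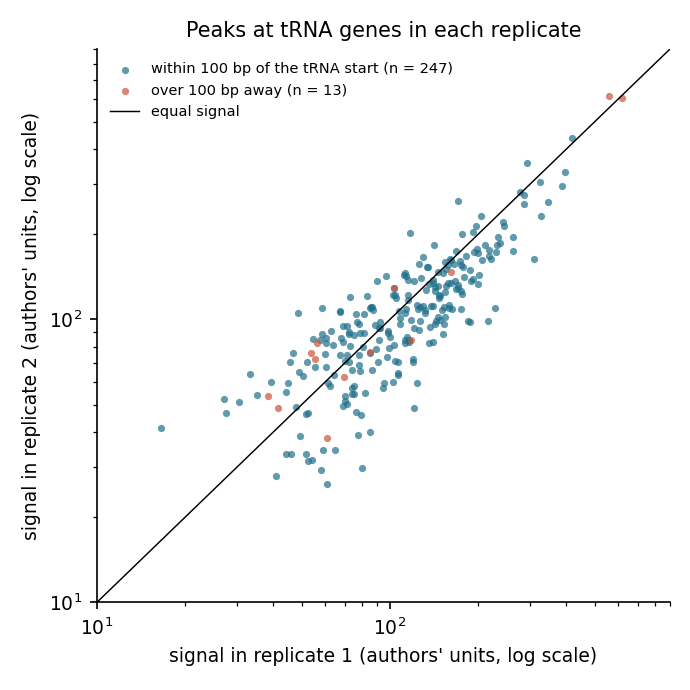
Signal of each member in replicate 1 against replicate 2, in the authors' units on log axes, with the line of equal signal; 247 points are peaks within 100 bp of a tRNA start and 13 lie farther away. All but 9 of the 260 points lie within 2-fold of the line, and replicate 2 is the higher at 96.

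The 2 highest signals among the members belonged to peaks that were not close to the tRNA gene. The peak nearest Y38E10A.t1, an alanine tRNA gene, at 12677972 to 12678175 on chromosome II, had 619 in replicate 1 and 604 in replicate 2 (mean 611 ± 10.8, SD, n = 2), and its summit was 248 bp upstream of the tRNA and 256 bp from the start of the protein-coding gene Y38E10A.22. The peak nearest C18A11.t2, an arginine tRNA gene, at 8036306 to 8036532 on chromosome X, had 561 and 616 (mean 589 ± 39.5, SD, n = 2) and lay 339 bp downstream of the start. The replicates differed little at both. C18A11.t2 had a second peak 30 bp upstream of its start, with 154 and 159 in the replicates (mean 157 ± 3.55, SD, n = 2). The 14 members beyond 100 bp had a median signal of 148, and 4 of them had a protein-coding start within 500 bp.

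The strongest close peak lay between a pair of proline genes. Its summit, on chromosome III in the region 11066836 to 11067100, was 46 bp upstream of W09D6.t2 and also within 100 bp of its divergent identical neighbour W09D6.t1; both are in an intron of rsa-2, which encodes a centrosomal protein needed for the mitotic spindle. It had a signal of 417 in replicate 1 and 438 in replicate 2 (mean 427 ± 14.7, SD, n = 2). K11H12.t1, the only selenocysteine tRNA gene in the set and a single-copy gene, followed on chromosome IV in the region 658021 to 658204. Its values were 396 and 331 (mean 364 ± 45.5, SD, n = 2), and the summit was 67 bp upstream, in an intron of K11H12.8. Selenocysteine tRNA is known for reading a stop codon in selenoprotein messages, and in other animals its gene has promoter elements upstream of the start.

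Lysine genes held the fifth and seventh ranks. K08E7.t1, in an intron of the P-glycoprotein transporter gene pgp-1, had 388 and 295 (mean 341 ± 65.2, SD, n = 2), with the summit on the first base of the gene. C33G3.t2, outside protein-coding genes, had 324 and 307 (mean 315 ± 12.4, SD, n = 2), with the summit 35 bp upstream. The start of an annotated noncoding RNA was at least as near to that summit. R11.t1, a tyrosine gene outside protein-coding genes, had 292 and 355 (mean 324 ± 44.7, SD, n = 2). The replicate values of these 3 genes overlap, so their order is not resolved.

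The other named peaks of the strongest 12 were also near their tRNA starts. F41D9.t3, an asparagine gene in an intron of the sulfate permease family gene sulp-3, had 347 and 260. M02F4.t1, a glycine gene, had 328 and 232, and the same summit was also within 100 bp of a glutamate gene from a set of 20 identical copies. C28G1.t1, a glutamate gene that overlaps an exon of C28G1.2, had 278 and 282, and its summit was 40 bp from the start of C28G1.2. C04A11.t1, a leucine gene, had 287 and 276 with the summit 5 bp inside the gene. F47G6.t1, an arginine gene in an intron of the myosin gene spe-15, had 286 and 257. All of these had both replicates between 232 and 347, and their ranges overlap one another.

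Of the 3 weakest members, 2 had a region over the summit in replicate 1 only. T05A8.t2, a leucine gene, had the lowest pooled signal of 71.9, with 39.0 in replicate 1 and no region over the summit in replicate 2. F53F8.t1, a cysteine gene with 74.3, had 43.3 in replicate 1 and no region over the summit in replicate 2. F41D9.t2, an arginine gene with 73.5, had 44.3 and 33.6. Over all members with both values, the replicates differed most at Y65A5A.t1, an alanine gene with 80.0 and 29.9, at F09B9.t2, an arginine gene in an intron of unc-115 with 16.6 and 41.4, and at the glutamate gene rte-2 with 120 and 48.5. The higher replicate was not the same at these 3. At 16 members a region covered the summit in exactly 1 replicate. The strongest of these were at C04A2.t1 (376), F17H10.t1 (327), C15C6.t1 (272), K11E4.t2 (248) and F28F8.t3 (245). A region of the other replicate that lay beside the summit was not looked for, so signal there is not shown to be absent.

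The distance limit left few peaks in doubt. The members nearest to it from inside were at F58D5.t1 at -445 bp with a signal of 320, T10B9.t1 at -439 bp with 90.3 and F42A10.t2 at 425 bp with 122. The peaks nearest to it from outside were at T03E6.t1 at -506 bp with 156, C16D9.t4 at 524 bp with 816 and Y7A5A.t4 at 556 bp with 87.1. Besides C18A11.t2, genes with more than 1 peak within 500 bp included F58D5.t1, F10C1.t1 and the serine pair K11H3.t1 and K11H3.t2 in an intron of the potassium channel gene twk-48. At the pair, 1 summit with 344 was 5 bp upstream of K11H3.t2 and the other, with 170, was 12 bp inside K11H3.t1.

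All amino acids were represented. RefSeq names an isotype, the amino acid the tRNA carries, for 607 of the 612 genes, and each of the 21 isotypes had at least 1 gene with a summit within 100 bp. The share was highest, among isotypes with more than 1 gene, for valine with 19 of 31 (61.3%), glutamate with 23 of 41 (56.1%) and leucine with 21 of 39 (53.8%). It was lowest for tyrosine with 5 of 19 (26.3%) and glycine with 16 of 55 (29.1%). Serine (13 of 39), proline (14 of 42) and tryptophan (4 of 12) each had 33.3%, below the 44.0% of all tRNA genes. Tyrosine, with the lowest share, had a median signal of 290 over its 5 close peaks, above the 207 of all close peaks, and alanine had 167 over 14. The range within an isotype was wide, from 73.5 to 539 over 22 arginine peaks and from 71.9 to 555 over 21 leucine peaks.

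**Figure D3:**
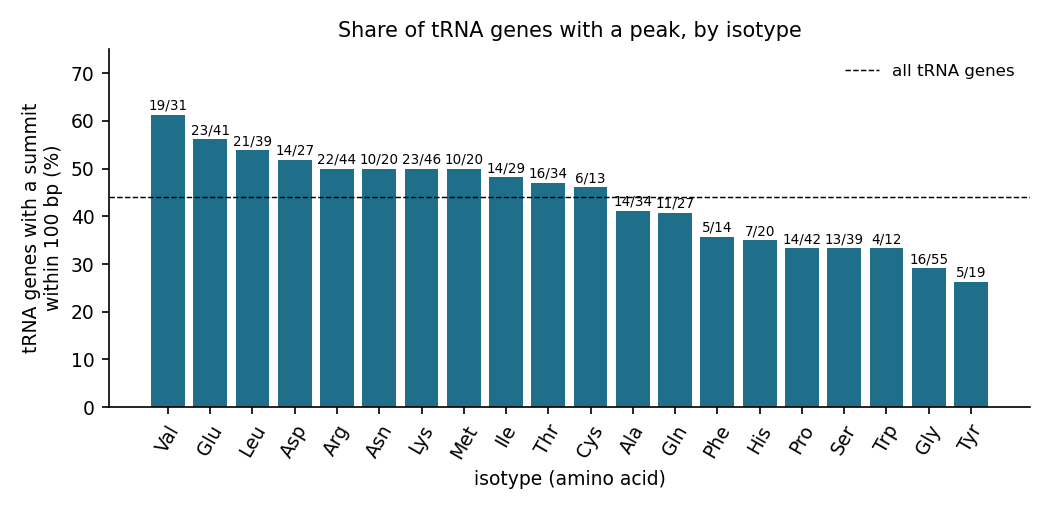
Percent of tRNA genes with a summit within 100 bp for each isotype, with the counts above the bars and the share of all 612 tRNA genes as a dashed line; the single selenocysteine gene and 5 genes without a named isotype are left out. Shares run from 61.3% for valine to 26.3% for tyrosine.

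Anticodons, the triplets that pair with the codon, could be read for 553 genes, with 44 different ones, and shares differed between them for some amino acids and not for others. Among lysine genes, 19 of 30 with anticodon CTT had a close peak (63.3%) and 4 of 15 with TTT (26.7%). Among glycine genes, the share was 7 of 15 with GCC (46.7%), 9 of 36 with TCC (25%) and 0 of 3 with CCC. For serine it was 3 of 15 with AGA (20%) and 4 of 9 with either GCT or TGA (44.4%). For valine it was 5 of 6 with CAC (83.3%), 11 of 19 with AAC (57.9%) and 3 of 5 with TAC (60%). Glutamate genes had 13 of 24 with CTC (54.2%) and 10 of 17 with TTC (58.8%), and threonine genes 8 of 17 with AGT (47.1%) and 4 of 9 with TGT (44.4%). These counts are small and genes with 1 anticodon are often identical copies, so they are not independent of one another.

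Identical genes did not share the same state. The 612 genes have 200 distinct sequences, and 469 of the genes fall in 57 sets of identical copies. In 43 sets some copies had a summit within 100 bp and others did not, with 215 of their 436 genes having one; all copies had a peak in 5 sets and none in 9. The largest sets were a glycine gene with 29 copies and 9 with a peak, a lysine gene with 25 and 17, the proline gene of W09D6.t2 with 24 and 8, an aspartate gene with 21 and 12, and a glutamate gene with 20 and 11. Genes with a unique sequence had a peak less often, 43 of 143 (30.1%), than genes with 2 to 5 copies (40 of 82, 48.8%) or over 20 copies (46 of 99, 46.5%). Reads that lie wholly inside identical copies cannot be told apart, and no source used here says how the authors placed them, so the split of signal between neighbouring copies is uncertain.

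Sequence that is repeated in the genome moved with the absence of peaks. Uniqueness was taken as the percent of 36-base words within 150 bp of the start that occur once in the genome. Of 22 genes with at most 50% unique words, 0 had a close peak, compared with 9 of 45 (20%) from 50 to 75% and 260 of 545 (47.7%) above 75%. Its part in the result was not tested. The medians of genes with and without a peak were 81.6% and 81.2%, and most genes are in the highest band.

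The flank upstream of the gene differed most in composition. The 50 bases before the start had a median GC content of 46% in the 269 genes with a close peak and 38% in the 343 without. The share of genes with a peak was 4 of 71 (5.63%) where upstream GC was at most 30%, 64 of 198 (32.3%) from 30 to 40%, 132 of 225 (58.7%) from 40 to 50% and 69 of 118 (58.5%) above 50%. Candidate regions, which include those too weak for the peak list, were also more frequent at higher GC, from 19 of 71 genes (26.8%) in the lowest band to 85 of 118 (72.0%) in the highest. The median signal of genes with a peak was 170 over 64 genes from 30 to 40% and 229 over 69 genes above 50%.

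Among the windows compared, the difference in GC was largest in the 100 bases upstream. The median was 44% with a peak and 36% without in the window from -100 to -51 bp, 38% and 36% in the window that begins at -150 bp and 34% and 36% in the window that begins at -200 bp. Past the gene, in the window that begins 100 bp after the start, it was 34% and 32%. In the windows that begin at 150 and at 200 bp it was 36% and 34%. The bases directly after most genes were in none of these windows. The genes themselves had medians of 58.9% and 58.3%. Chromosome X gave 44% with a peak and 36% without, and the autosomes 48% and 42%. Among genes with over 75% unique words, 4 of 57 (7.02%) had a peak in the lowest GC band and 64 of 105 (61.0%) in the highest.

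**Figure D4:**
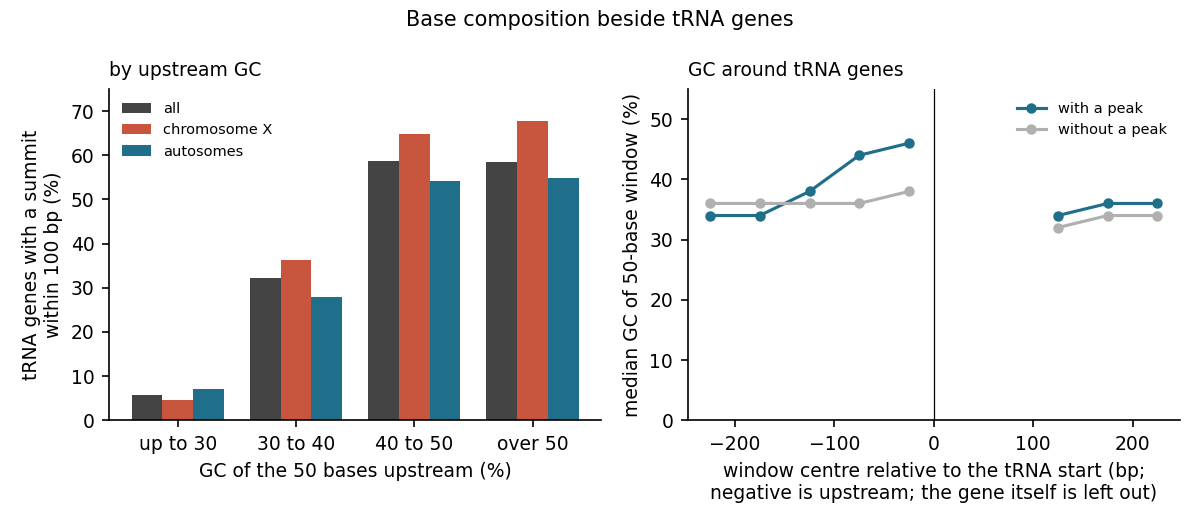
Left, percent of tRNA genes with a summit within 100 bp by GC content of the 50 bases upstream, for all 612 genes, chromosome X and the autosomes; right, median GC of 50-base windows by distance from the tRNA start for 269 genes with and 343 without a peak. The share rises from 5.63% to 58.7% between the lowest band and 40 to 50%, and the GC curves part within 100 bp upstream of the start.

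The same comparison was made among identical genes, where the gene sequence is held equal. In 31 of the 43 mixed sets the copies with a peak had the higher median upstream GC, in 11 the lower and in 1 the same. The threonine set shown had medians of 46% with a peak and 34% without, while the proline set had 41% in both. Whether base composition itself has a part in which peaks were called was not tested, and a control library was not analysed here.

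Genes that stand alone had close peaks more often than genes in groups. Grouping tRNA genes whose neighbouring starts are within 2000 bp gave 343 single genes, of which 173 had a close peak (50.4%), and 111 groups of 2 or more, with 96 of their 269 genes (35.7%). The median distance to the next tRNA start was 7822 bp for genes with a peak and 1823 bp for genes without. The share was 25 of 93 (26.9%) where the next start was within 250 bp, 21 of 66 (31.8%) from 250 to 500 bp, 35 of 71 (49.3%) from 500 to 1000 bp, 15 of 39 (38.5%) from 1000 to 2000 bp, 47 of 103 (45.6%) from 2000 to 10000 bp and 126 of 240 (52.5%) beyond. The shares thus did not rise steadily with distance, and the lowest were at spacings under 500 bp. Among neighbours within 500 bp, 16 of 84 genes in divergent pairs (19.0%) had a close peak. Convergent pairs had 12 of 36 (33.3%) and tandem pairs 19 of 52 (36.5%). In 32 of the 42 divergent pairs neither gene had a close peak. Counting summits within 500 bp instead, divergent pairs had 23 of 84 (27.4%), convergent pairs 24 of 36 (66.7%) and tandem pairs 32 of 52 (61.5%). Only the divergent pairs were then below the 49.8% of all tRNA genes. At that distance the same summit can count for both genes of a pair.

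**Figure D5:**
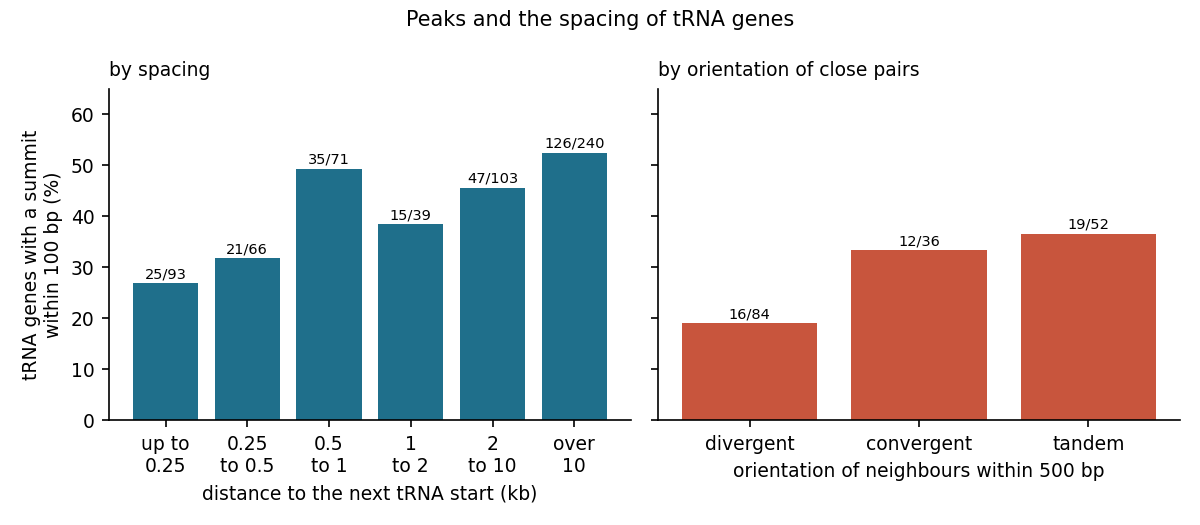
Left, percent of tRNA genes with a summit within 100 bp by distance to the next tRNA start (kb); right, the same share for genes in pairs with starts within 500 bp, by orientation. Counts stand above the bars, and the lowest shares are 26.9% for starts within 250 bp and 19.0% for divergent pairs.

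The median percent of unique 36-base words was alike in close pairs, 81.2 in divergent, 81.6 in convergent and 80.5 in tandem pairs, and the median upstream GC was 38%, 39% and 39%, below the 46% of genes with a peak. The part of these in the difference was not tested. The largest groups lay on chromosome X. F22F1.t2 to F22F1.t9 held 8 genes of 4 isotypes within 4090 bp. Of these, 4 had a close peak and 6 had a summit within 500 bp. F28H6.t2 to F28H6.t7 held 6 histidine genes, 1 with a close peak and 2 with a summit within 500 bp. Among groups of 5 genes, 2 genes had a close peak from K01A12.t1 to K01A12.t5, 1 from H08J11.t1 to H08J11.t5, all glutamine genes, and 0 from R04E5.t1 to R04E5.t5. Within 500 bp the counts in these groups of 5 were 5, 3 and 0.

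Chromosome X held 124 of the 277 members (44.8%), against 1094 of the 5283 other peaks (20.7%). It also holds 276 of the 612 nuclear tRNA genes (45.1%). The share of tRNA genes with a close peak was 124 of 276 on X (44.9%) and 145 of 336 on the autosomes (43.2%). By autosome it was 43.9% on I, 45.6% on II, 53.1% on III, 39.4% on IV and 35.9% on V. No tRNA gene lay in the span of 67560 bp around the rnt-1 gene itself that held no candidate summit.

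Shares were similar for tRNA genes in introns and outside protein-coding genes. Of 283 tRNA genes in introns of protein-coding genes 133 had a close peak (47.0%), of 319 that overlap no protein-coding gene 131 (41.1%), and of 10 that overlap an exon 5. Intronic genes on the strand of their host had a peak in 77 of 161 cases (47.8%) and those on the opposite strand in 56 of 122 (45.9%). The share was 43 of 95 (45.3%) for tRNA genes within 500 bp of a protein-coding start and 94 of 195 (48.2%) from 2000 to 5000 bp. It was 20 of 81 (24.7%) beyond 5000 bp.

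The elements inside and after the gene were about as frequent with and without a peak. The B box match GTTCNANNC on the gene's strand was in 260 of 269 genes with a close peak (96.7%) and in 327 of 343 without (95.3%). The stricter form GTTCGANNC was in 74.3% and 70.3%. A run of TTTT within 30 bp after the gene was found in 269 of 269 and in 336 of 343 (98.0%). Of 209 tRNA pseudogenes, 165 held the B box match (78.9%), and 2 of these 165 had a close peak (1.21%). A match to these letters is a description and not evidence of a working promoter.

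The RUNX core hexamers TGTGGT and TGCGGT, searched on both strands, were within 50 bp of 47 of 277 member summits (17.0%) and of 514 of 5283 other summits (9.73%). Within 100 bp the counts were 60 (21.7%) and 851 (16.1%), a smaller contrast. They came mainly with certain isotypes: 19 of 22 glutamate peaks, 11 of 20 valine peaks and 5 of 12 glutamine peaks (41.7%) had one. With glutamate and valine left out, the members had one at 17 of 235 (7.23%), glutamine included. Glutamate and valine genes often hold the hexamer in the tRNA sequence itself, 48 of 72 (66.7%). It is shown in capitals in ZK783.t1, a glutamate gene at chrIII:7642158-7642229 on the minus strand, and in W03C9.t1, a valine gene at chrII:11959375-11959447 on the plus strand. Both are single-copy genes, with peak signals of 202 and 457.
ZK783.t1: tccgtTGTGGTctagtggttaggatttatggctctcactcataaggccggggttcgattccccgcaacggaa
W03C9.t1: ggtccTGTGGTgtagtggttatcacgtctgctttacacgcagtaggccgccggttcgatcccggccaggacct

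Over all tRNA genes, the gene sequence held a hexamer in 29 of 269 genes with a close peak (10.8%) and in 26 of 343 without (7.58%). Within 50 bp of the start the counts were 47 of 269 (17.5%) and 39 of 343 (11.4%). Among glutamate and valine genes the shares were equal: of the 48 with the hexamer in the gene, 28 had a close peak (58.3%), and of the 24 without it, 14 did (58.3%). The 100 bases upstream held a hexamer in 25 of 269 genes with a close peak (9.29%) and in 23 of 343 without (6.71%). Members with a hexamer near the summit had a median signal of 213, and those without had 199. Most members, 230 of 277, had neither form near the summit.

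Genes without a peak were not all without signal. Of the 307 tRNA genes with no peak within 500 bp, 129 had a candidate region at that distance in the pooled list of 30000 regions, 78 of them within 100 bp, and 178 had none. The 78 candidates ranged from 26.2 to 71.1 with a median of 46.8. All were below the weakest member at 71.9, as the signal cut of the peak list requires. Adding candidates, 355 of 612 tRNA genes (58.0%) had a summit within 100 bp, against 1844 of 19973 protein-coding genes (9.23%) and 15 of 209 tRNA pseudogenes (7.18%). That distance was set on the tRNA summits, while peak summits near protein-coding starts were spread farther upstream. The strongest candidates without a peak were at T04D3.t2, a glycine gene in an intron of the guanylate cyclase gene gcy-35, with 71.1, F12D9.t4 with 69.9, Y65A5A.t3 with 69.7, F22B7.t1 with 69.7 and C06G1.t4 with 69.0. In the replicates, F22B7.t1 had 35.6 and 38.9, while Y65A5A.t3 had 20.9 and 51.1. The lists end at a fixed number of regions, so a missing candidate means a value too low to be listed, not a measured 0.

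Taking each replicate alone gave nearly the same genes. The 5560 strongest regions of replicate 1 put a summit within 500 bp of 305 tRNA genes, 290 of them shared with the 305 of the pooled list (95.1% of each). Those of replicate 2 reached 302 genes, 288 of them shared, which is 95.4% of the replicate's genes and 94.4% of the pooled list's. Both replicates reached 280 genes, of which 276 were also reached in the pooled list. The pooled list was built from the same libraries, so this overlap describes agreement between replicates and not independent evidence.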

How the data were processed

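Tagged RNT-1 was mapped by ChIP-seq in 2 biological replicates of 1 group. As narrowPeak lists, the authors deposited regions whose signal column is the peak caller's enrichment value; no source used here names the aligner, the caller or the treatment of reads that fit several places. The ce11 lists were used: 30000 candidates per replicate, 30000 from the pooled replicates, and the optimal list of 5560 peaks by irreproducible discovery rate, which equals the strongest 5560 of the pooled list. Lists on ce10 were not used. Read depth is unknown, so no interval was computed.

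Gene positions were from Ensembl release 115 (WBcel235); names, isotypes, pseudogenes and sequence were from RefSeq, matched for all 612 nuclear tRNA genes. The summit was column 2 plus column 10, in 1-based coordinates. A replicate value is the signal of the region of that replicate covering the summit. Anticodons were read from the gene sequence and kept where the codon matched the RefSeq isotype. Python 3.11.15, pandas 2.3.3 and numpy 2.4.6 were used, and assignment was tested on simulated summits. With 1 group of 2 replicates no test over samples was possible, and no p-value is given.

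Members and lists were chosen with earlier results of these data known. The rule for naming took the 12 strongest and 3 weakest peaks, the 3 with the largest replicate ratio and those nearest the distance limit. It also took up to 5 peaks whose summit was covered in exactly 1 replicate and up to 5 genes with more than 1 peak. The largest tRNA groups and the 5 strongest candidates without a peak completed it. The printed sequences are limited to genes off chromosome I without an identical copy there, and the copies shown were chosen after their values were seen. GC, uniqueness, spacing and orientation were examined after the peaks had been seen. Alternatives changed the distance, the reference point, the peak list and the motif forms.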

Additional observations from a re-analysis of the deposited data

How the results depend on the processing

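The number of peaks at tRNA genes (277) and of tRNA genes with a peak (305) stayed within 1.5 times under every alternative except the stronger 2780 peaks, which left 168 peaks and 191 genes. The share of tRNA genes with a peak, 49.8%, was 46.4% at 250 bp, 55.2% at 1000 bp, 50.7% from the nearest base of the gene, 31.2% with the stronger peaks and 44.0% at 100 bp, a distance added after the data were seen. With each replicate alone it was 49.3% to 49.8%. The share of upstream summits, 66.8%, was 67.5% at 250 bp, 65.2% at 1000 bp, 65.8% from the nearest base, 72.0% with the stronger peaks, 69.2% where the nearest start is that of a tRNA gene, 61.7% by peak midpoint, 67.3% at 100 bp, and 65.2% to 65.7% by replicate. A protein-coding start within the distance was found for 17.0% of members, 4.91% at 250 bp, 35.4% at 1000 bp, 14.9% with the stronger peaks and 18.1% by either replicate. The share on chromosome X, 44.8%, was 45.7% at 250 bp, 45.8% with the stronger peaks, 44.1% where a tRNA start is nearest, 45.6% at 100 bp and 43.5% to 43.7% by replicate. RUNX hexamers, at 17.0%, were 21.7% within 100 bp of the summit (16.1% at other peaks) and were 15.5% to 17.4% by replicate. The B box share with a peak minus that without, 0.954 percentage points within 500 bp, was 4.07 with the stricter form and 0.874 to 1.61 by replicate. Median signal, 205, was 198 to 207. Spread between the replicates was small, so most shifts of the shares exceed it. Counts, shares and medians cannot change sign. Only the B box difference could, and it stayed positive. No paired analysis was possible because there is only 1 group. Read depth is unknown from these lists and limits what can be said of genes without a candidate.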

Other observations

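Among the 6 tRNA pseudogenes with a summit within 500 bp, the strongest signals were at T08B2.t1, with 545 and the summit 14 bp after its start, and at D1046.t1, with 414 and the summit 2 bp before it. None of the 6 summits was within 500 bp of an annotated tRNA gene's start. T08B2.t1 holds a B box match and D1046.t1 does not. The other 4 had signals of 74.8 to 106.

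Close peaks at single-copy genes had a median summit position of -15 bp over 43 peaks, and those at genes with more than 10 copies had -9 bp over 135. The GC content within 50 bases of the summit had a median of 50.5% over the members and 46.5% over the other peaks. For the 248 of 277 members within 50 bp of a tRNA start, this window takes in part of the gene. Genes with a close peak had a median GC content of 58.9%, and the part of the gene in the difference was not tested.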
